A study of Mus musculus with 241 samples.

Results

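PU.1 and Spi-B, encoded by Spi1 and Spib, were followed through the first stages of T-cell development in the mouse thymus. The 2 genes were picked by their symbols, out of 24506 genes in the bulk table, and not by their values. Both were found in the bulk, 10x and C1 data. All cells came from untreated C57BL/6 mice and from the gate Lin- 7AAD- CD44+ Kit+, which holds early T-cell progenitors (ETPs, without surface CD25) and DN2a cells (with CD25). RNA was sequenced from 12 bulk libraries of 5 sorted populations, from 2 libraries of single cells in 10x droplets and from single cells captured on the Fluidigm C1 chip, for 241 samples in all.

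The bulk mice all carried the genotype Bcl11byfp/yfp, in which a yellow fluorescent protein reports Bcl11b, a transcription factor switched on at commitment to the T lineage. Every bulk population therefore carries the reporter alleles. The populations were Flt3+ ETPs (CD25- Flt3+, 2 libraries), Flt3- ETPs (CD25- Flt3-, 2 libraries), total ETPs (CD25-, not divided by Flt3, 2 libraries), Bcl11b- DN2a cells (CD25+ YFP-, 3 libraries) and Bcl11b+ DN2a cells (CD25+ YFP+, 3 libraries). The 10x and C1 cells were WT, were taken from the whole gate and were divided here only by the mRNAs found in each cell. The labels give no ages and tie no replicate to a separate mouse, so p-values measure the spread between libraries, which may be technical.

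PU.1 is an ETS-family transcription factor that drives myeloid and B-lineage programmes and is required for early lymphoid and myeloid progenitors. Early thymic progenitors inherit its expression, and it is silenced as cells commit to the T lineage. Spi-B is its closest relative, binds similar purine-rich sites, and is best known from B cells, plasmacytoid dendritic cells and some thymocyte stages. Spi-C, encoded by Spic, is the remaining member of the subfamily and acts in red pulp macrophages.

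In the annotation of the deposited bulk table, on mm10, the Spi1 model (NM_011355) spans chromosome 2 from 91096678 to 91115759 on the plus strand, with an exonic length of 1448 bases. The Spib model (NM_019866) spans chromosome 7 from 44525995 to 44532071 on the minus strand, with a length of 2778 bases. Bulk values are FPKM, reads per kilobase of the gene model and scaled to library size, so levels of different genes can be set side by side. Reads recovered from FPKM numbered 21207189 in the shallowest and 38536972 in the deepest bulk library. In each of the 4 populations other than total ETP, 1 library was made with SMART-Seq v4 and the others with NEBNext Ultra. Several ETP libraries also held transcripts of a later stage. Bcl11b stood at 5.76 FPKM in Flt3+ ETP replicate 1 and at 4.54 FPKM in Flt3- ETP replicate 1, against 0.03 to 0.17 FPKM in the other 4 ETP libraries.

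Spi1 was abundant in every sorted population and lowest in Bcl11b+ DN2a cells. It stood at 62.5 and 60.1 FPKM in Flt3+ ETPs, at 76.99 and 68.69 FPKM in Flt3- ETPs and at 39.1 and 30.7 FPKM in total ETPs. Bcl11b- DN2a cells held 62.4, 50.8 and 51.97 FPKM, and Bcl11b+ DN2a cells 25.8, 13.2 and 19.1 FPKM, in replicates 1, 2 and 3. The 3 libraries of Bcl11b+ DN2a cells lay below all other libraries, with no overlap with any population. In the order of the means, Flt3- ETPs (72.8 ± 5.87 FPKM, SD, n = 2) were followed by Flt3+ ETPs (61.3 ± 1.68, n = 2), Bcl11b- DN2a cells (55.1 ± 6.35, n = 3), total ETPs (34.9 ± 5.96, n = 2) and Bcl11b+ DN2a cells (19.4 ± 6.34, n = 3). In bulk RNA, fewer cells with a transcript and less of it per cell cannot be told apart.

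**Figure D1:**
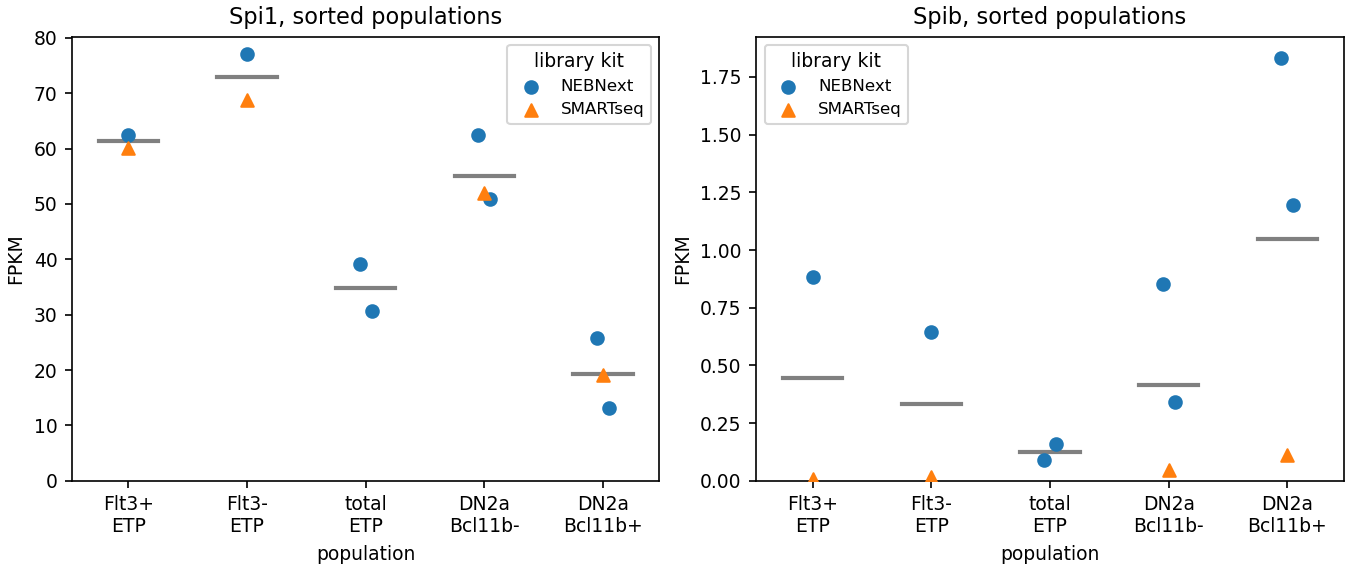
Spi1 (left) and Spib (right) in FPKM in each bulk library by sorted population, with blue circles for NEBNext and orange triangles for SMART-Seq libraries and a grey line at the mean. Spi1 is lowest in the 3 Bcl11b+ DN2a libraries (13.2 to 25.8 FPKM), while Spib stays under 2 FPKM throughout and is at most 0.113 FPKM in the SMART-Seq libraries.

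Between Bcl11b- and Bcl11b+ DN2a cells, Spi1 fell by 1.50 ± 0.20 on the log2(FPKM + 1) scale (limma, all 12 libraries with population and kit as terms, adjusted p = 0.00237), or 2.83-fold. In this comparison 2.79% of the 12112 genes tested were called at an adjusted p under 0.05. With the replicate number as a block beside the kit, which raised the genes called from 338 to 850, the limma adjusted p was 0.000133. That number pairs the DN2a libraries with each other, but across the ETP populations it joins libraries from different series of library numbers. With the series as a block in place of the kit, 682 genes were called. Against Flt3+ ETPs, Spi1 in Bcl11b+ DN2a cells fell by 1.67 ± 0.23 (limma adjusted p = 0.000521), or 3.19-fold, in a comparison that called 11.3% of genes and shares the Bcl11b+ libraries with the first. The first call rests on how kit and filter are handled: the difference was -1.50 with limma adjusted p = 0.0623 without a filter on low values, and -1.50 with limma adjusted p = 0.248 without the kit term. With the NEBNext libraries alone the difference was -1.56 (limma adjusted p = 0.125).

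No other step moved Spi1 past the threshold. Flt3- ETPs differed from Flt3+ ETPs by 0.24 ± 0.25 (limma adjusted p = 0.618), in a comparison with 0.685% of genes called. Bcl11b- DN2a cells differed from Flt3- ETPs by -0.41 ± 0.23 (limma adjusted p = 0.267, 3.97% of genes called). The undivided ETPs were lower in Spi1 than both ETP fractions, and Bcl11b- DN2a cells differed from them by 0.67 ± 0.23 (limma adjusted p = 0.0701, 15.6% of genes called). Both total ETP libraries belong to 1 series of library numbers, together with replicate 2 of each DN2a population. Within that series Spi1 ran from 50.8 FPKM in Bcl11b- DN2a cells through 39.1 and 30.7 FPKM in total ETPs to 13.2 FPKM in Bcl11b+ DN2a cells. With the replicate number as a block the difference from total ETPs was 0.66 (limma adjusted p = 0.00615), with 22.4% of all genes called higher and 17.4% lower. That number does not mark pairs here. Replicate 1 of these populations comes from different series, and deviations of same-numbered libraries from their group means correlated by only 0.17 and 0.11. With the series as a block in place of the kit, 4.53% of all genes were called higher and 3.23% lower.

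Spib lay far below Spi1 in every library and had its highest bulk levels in Bcl11b+ DN2a cells. In Bcl11b+ DN2a replicates 1, 2 and 3 it stood at 1.833, 1.196 and 0.113 FPKM, from 273 recovered reads in the first and 14 in the last. In Bcl11b- DN2a cells it stood at 0.851, 0.343 and 0.049 FPKM. The replicate 3 libraries of both populations are the SMART-Seq ones, and each was lower than its NEBNext counterparts. Flt3+ ETPs held 0.883 and 0.007 FPKM, Flt3- ETPs 0.647 and 0.015 FPKM, and total ETPs 0.090 and 0.158 FPKM. The second value of each Flt3 fraction is again the SMART-Seq library, with 1 and 2 recovered reads.

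The Spib ranges of all populations overlapped, and no comparison in the fit without a block on all libraries reached an adjusted p under 0.05. Bcl11b+ minus Bcl11b- DN2a was 0.47 ± 0.20 on the log2(FPKM + 1) scale (limma adjusted p = 0.382), a scale that understates changes at such low levels. The higher library of each pair was Bcl11b+ in 3 of 3 series of library numbers. Spib met the filter of more than 1 FPKM in at least 2 libraries only through the NEBNext libraries of Bcl11b+ DN2a cells, so its place among the tested genes depended on the population where it was highest. Against Flt3+ ETPs the difference was 0.33 ± 0.23 (limma adjusted p = 0.431), against total ETPs Bcl11b- DN2a cells differed by 0.57 ± 0.23 (limma adjusted p = 0.1003), and the remaining comparisons gave -0.09 ± 0.24 and -0.05 ± 0.23 (limma adjusted p = 0.867 and 0.896). The difference of Bcl11b- DN2a cells from total ETPs was 0.58 with the replicate number as a block (limma adjusted p = 0.0476) and 0.77 without Bcl11b- DN2a replicate 2 (limma adjusted p = 0.0404). These fits called 22.4% and 12.7% of all genes higher, and the replicate number does not pair the libraries of these populations. In edgeR on recovered reads with the library-number series as a block, Bcl11b+ DN2a minus Flt3+ ETP was 1.94 (adjusted p = 0.043).

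Markers of committed T cells were highest in the same ETP libraries as Spib. In the other ETP libraries, where fewer of them exceeded 1 FPKM, their sum did not follow it. The summed level of 7 such genes (Cd3d, Cd3e, Cd3g, Lat, Cd8a, Rag1 and Ptcra) was 154.5 and 134.3 FPKM in replicate 1 of Flt3+ and Flt3- ETPs, the ETP libraries with the most Spib. It was 67.3 and 51.0 FPKM in their SMART-Seq replicates and 31.4 and 25.8 FPKM in total ETPs, an order opposite to that of Spib in these 4 libraries. Of the 7 genes, 6 exceeded 1 FPKM in each replicate 1, but only 4, 1, 2 and 3 in these 4 libraries. The order also crosses the kits, with Spib at 1 and 2 recovered reads in the SMART-Seq libraries. The sum ranged from 61.3 to 112.7 FPKM in Bcl11b- and from 163.1 to 279.1 FPKM in Bcl11b+ DN2a cells, and no marker was at 0 in any of the 12 libraries. The part of these transcripts in the bulk Spib values was not tested. Markers of plasmacytoid dendritic cells, which express Spib, summed to 99.7 to 150.9 FPKM in Bcl11b- and to 76.1 to 144.7 FPKM in Bcl11b+ DN2a cells. Only 4 or 5 of these 8 genes exceeded 1 FPKM in each DN2a library, and up to 2 were at 0. The sum thus rests on part of the list, and the part of such cells in the Spib values was not tested.

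Spic was at the edge of detection. It was listed at 0 in the 3 libraries of Bcl11b+ DN2a cells and lay between 0.073 and 0.324 FPKM in the other 9 libraries. It did not meet the filter, and in edgeR on recovered reads the difference between the DN2a populations had an adjusted p of 0.0718.

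The genes whose bulk pattern was most like each member were ranked by Pearson's r over the 12 libraries, after removal of the kit effect, as a description of libraries that share populations and series. For Spi1, among 6366 genes, the leading 5 were Itgb7 (r = 0.98), the integrin beta 7 chain, Rnh1 (0.96), a ribonuclease inhibitor, Irf1 (0.96), an interferon-regulatory transcription factor, Rasa4 (0.96), a Ras GTPase-activating protein, and Serpinf1 (0.96), a secreted serpin. For Spib, among 6367 genes, they were Apitd1 (0.95), a centromere protein, Mxd3 (0.93), a MAX-binding repressor, Naxd (0.93), an enzyme of NAD(P)H repair, Thy1 (0.93), a surface glycoprotein of T-lineage cells, and Anapc15 (0.92), a subunit of the anaphase-promoting complex. Thy1 averaged 78.5 FPKM in Bcl11b+ DN2a cells, 25.9 in Flt3+ ETPs, 17.7 in Flt3- ETPs, 16.7 in Bcl11b- DN2a cells and 6.49 in total ETPs. Spi1 and Spib themselves had r = -0.25. Removal of the kit effect took Spib in total ETPs to -0.30 and -0.21 on the log2(FPKM + 1) scale, which has no negative values. In the SMART-Seq libraries of Flt3+ and Flt3- ETPs, with 1 and 2 recovered reads, Spib became 0.43 and 0.44. How far the correlations of Spib rest on this removal was not tested.

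Single cells were then divided by whether they held at least 1 UMI (a unique molecular identifier, which counts RNA molecules) of Flt3, of Il2ra, which encodes CD25, and of Bcl11b. The 10x libraries kept 4878 and 8434 cells, with medians of 8488.5 and 6137 UMIs, and shared 55 of their kept barcodes. The classes held, in libraries 1 and 2, 443 and 624 cells with Flt3 only, 1635 and 3295 with no marker, 1401 and 2021 with Il2ra only and 1183 and 1917 with Il2ra and Bcl11b. Cells with Bcl11b only were 3.05% of library 1 and 5.74% of library 2. A missing UMI does not show that the mRNA was absent, so the class with no marker mixes cells of all stages. The 67 and 93 cells with Flt3 together with another marker were left out of the tests.

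Spi1 was nearly level across cells without Bcl11b and dropped where Bcl11b was detected. In CPM (UMIs of the gene per 1000000 UMIs of a class), in libraries 1 and 2, it stood at 106.5 and 123.8 with Flt3 only, at 132.1 and 137.6 with no marker and at 115.5 and 112.6 with Il2ra only. With Il2ra and Bcl11b it stood at 50.6 and 47.9, and with Bcl11b only at 40.7 and 42.4. Every value of the Bcl11b classes lay below every value of the other classes, in both libraries. Between Il2ra-only cells and cells with Il2ra and Bcl11b, Spi1 fell by 1.25 ± 0.06 (log2, edgeR on summed counts of the 2 libraries with library as a block, adjusted p = 1.34e-31), or 2.37-fold. This comparison called 24.7% of 11377 genes, and both classes come from the same libraries.

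The steps before Bcl11b were small. Cells with no marker exceeded Flt3-only cells by 0.20 ± 0.06 (edgeR adjusted p = 0.0293, 5.48% of genes called), a call lost in DESeq2 (0.20, adjusted p = 0.27). With every cell thinned to 4000 UMIs and its class taken anew, that difference was -0.01 (edgeR adjusted p = 0.989). Il2ra-only cells differed from Flt3-only cells by -0.10 ± 0.06 (edgeR adjusted p = 0.317, 20.2% of genes called), with opposite signs in the 2 libraries (log2 ratios of 0.12 and -0.14). After thinning, when cells whose Flt3 UMI was lost moved to other classes and 229 and 390 cells were left with Flt3 only, it was -0.33 (edgeR adjusted p = 0.00852).

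**Figure D2:**
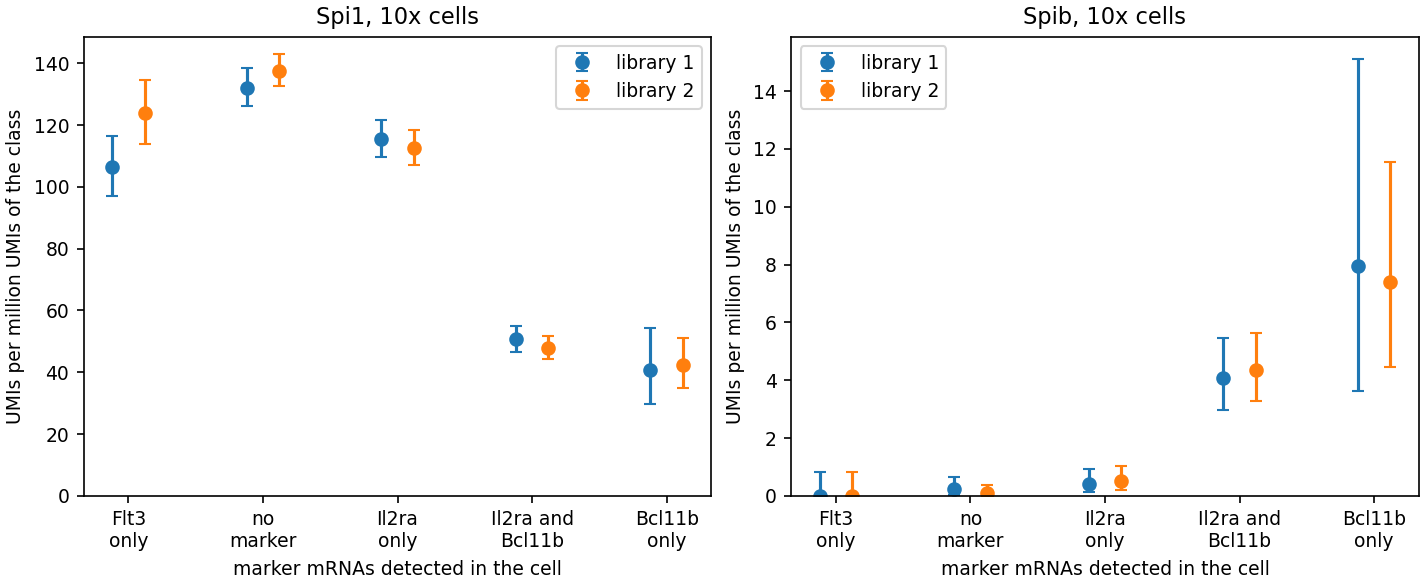
Spi1 (left) and Spib (right) in CPM, UMIs per 1000000 UMIs of each cell class, by the marker mRNAs detected in a cell, for 10x library 1 (blue) and library 2 (orange), with exact Poisson 95% intervals that cover counting error only. Spi1 falls from 115.5 and 112.6 with Il2ra only to 50.6 and 47.9 with Il2ra and Bcl11b, while Spib is at 0 with Flt3 only and highest with Bcl11b only (7.97 and 7.40).

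At a depth of 4000 UMIs, the share of cells with a Spi1 UMI was 37.99% and 43.85% with Flt3 only, 39.4% and 39.7% with no marker and 35.35% and 33.98% with Il2ra only. It was 16.5% and 17.8% with Il2ra and Bcl11b, and 17.7% and 15.9% with Bcl11b only. Cells with Bcl11b and at least 5 UMIs of Cd3d, Cd3e and Cd3g, the invariant chains of the T-cell receptor complex, served as the level in committed cells. There the share was 5.44% and 5.97%, so the Bcl11b classes as a whole lay above it. Without thinning the shares were 59.2% and 50.7% with Il2ra only (median depths 8482 and 6547 UMIs), 32.04% and 25.25% with Il2ra and Bcl11b (8970 and 6749 UMIs) and 8.01% and 7.41% in the Cd3 cells (4943 and 3899 UMIs). At 4000 UMIs 250 and 1456 shallower cells were left out.

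Spib was rare and, opposite to Spi1, was higher in the classes with Bcl11b than in those without it. It gave 62 and 85 UMIs in all, in 61 and 78 cells, against 4409 and 5663 UMIs of Spi1. In CPM it stood at 0 with Flt3 only in both libraries, at 0.221 and 0.101 with no marker and at 0.398 and 0.504 with Il2ra only. It then stood at 4.08 and 4.35 with Il2ra and Bcl11b and at 7.97 and 7.40 with Bcl11b only. The order of the 5 classes was the same in both libraries. Cells with Il2ra and Bcl11b exceeded Il2ra-only cells by 3.14 ± 0.39 (log2, edgeR adjusted p = 1.46e-10), or 8.83-fold, from 44 and 57 UMIs against 5 and 7. Spib met the edgeR filter only through the classes with Bcl11b. Its place among the tested genes, and so this p-value, depended on the classes where it was highest.

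The Flt3-only class held 0 Spib UMIs in 443 and 624 cells, which allows up to 0.677% and 0.481% of cells with a detected Spib UMI and sets no limit on cells that express the gene. Set against a floor of 3 counts over both libraries of that class, Spib was at least 12.6-fold higher with Il2ra and Bcl11b and at least 22.6-fold higher with Bcl11b only. With Il2ra only it gave 5 and 7 UMIs and no fold is given, and with no marker it lay under the floor. The edgeR comparisons of those latter classes with Flt3-only cells gave adjusted p = 0.085 for Il2ra only and 0.524 for no marker. The shares of cells with a Spib UMI, without thinning, were 3.63% and 2.71% with Il2ra and Bcl11b and 0.357% and 0.346% with Il2ra only. After thinning to 4000 UMIs they were 1.68% and 1.61% against 0.080% and 0.301%, and the Flt3-only class, taken as background after its values were seen, held 0 of 229 and 0 of 390 cells.

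Spi1 already stood lower at 1 Bcl11b UMI. In thinned cells the share with a Spi1 UMI was 37.8% and 38.2% at 0 Bcl11b UMIs, 19.4% and 18.4% at 1, 19.03% and 19.13% at 2, 11.8% and 14.4% at 3 and 11.3% and 13.1% at 4 or more. Il2ra gave a shallower gradient, from 37.4% and 37.6% at 0 UMIs to 23.7% and 20.6% at 4 or more. By the summed Cd3 UMIs the share ran from 36.2% and 36.2% at 0 through 26.4% and 23.3% at 1 to 2 and 8.05% and 6.06% at 5 to 9, to 3.72% and 4.94% at 10 or more. Cells with Bcl11b but 0 Cd3 UMIs held Spi1 in 22.4% and 21.6% of cells, so the lower share with Bcl11b was present where no Cd3 was detected.

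Spib detection sat at the far end of the Cd3 range. It was found in 0.12% and 0.21% of thinned cells at 0 Cd3 UMIs, in 1.15% and 0.76% at 5 to 9 and in 6.38% and 6.46% at 10 or more. The bin of 3 to 4 Cd3 UMIs held only 42 and 64 cells and no Spib. Among cells with Bcl11b but 0 Cd3 UMIs the share was 0.17% and 0.80%. These bins were set after the data were seen.

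**Figure D3:**
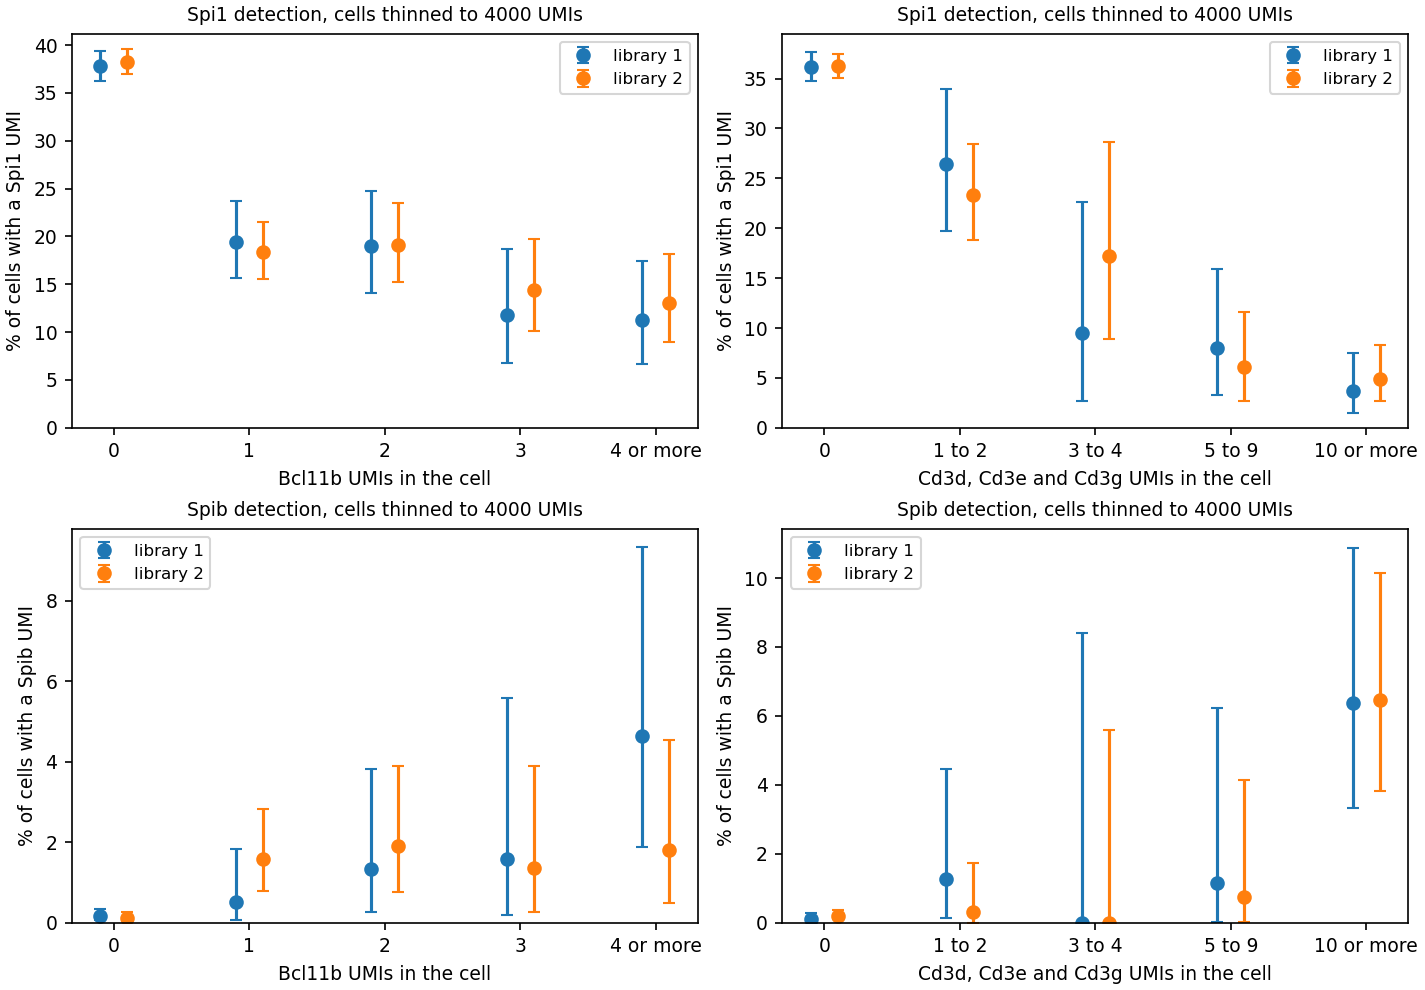
Share of 10x cells, thinned to 4000 UMIs, with a Spi1 UMI (top) or a Spib UMI (bottom) by the cell's UMIs of Bcl11b (left) and of Cd3d, Cd3e and Cd3g summed (right), for library 1 (blue) and library 2 (orange) with exact binomial 95% intervals. Spi1 falls with both markers, while Spib is found in 6.38% and 6.46% of cells with 10 or more Cd3 UMIs and in 0.12% and 0.21% of cells with none.

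The cells with at least 5 Cd3 UMIs, 492 and 975 in number, are 10.1% and 11.6% of kept cells. They held most of the Spib UMIs, 75.8% in library 1 and 80% in library 2. Spib stood at 14.04 and 13.65 CPM in them and at 0.37 and 0.34 in all other cells. Spi1 stood at 14.9 and 16.9 in them and at 108.96 and 112.41 in the others. Within these cells the counts were 50 and 84 UMIs of Spi1 and 47 and 68 UMIs of Spib, whereas all other cells held 4359 and 5579 UMIs of Spi1 and 15 and 17 of Spib. The cells also differed in depth, with medians of 4943 and 3953 UMIs against 8687 and 6319.

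These Cd3 cells carried low mRNA for the markers of the sorting gate and high mRNA for genes of the pre-T-cell receptor stage. Kit stood at 18.2 and 29.1 CPM against 101.7 and 109.996 in the other cells, and Cd44 at 9.6 and 10.0 against 60.3 and 63.2. Ptcra, the surrogate chain of the pre-T-cell receptor, stood at 253 and 237 against 2.7 and 2.0. Rag1, a recombinase of receptor genes, stood at 115.6 and 137.3 against 1.6 and 2.0, and Thy1 at 611 and 608 against 38.5 and 42.1. Within the Cd3 cells, Spib stood at 20.7 and 23.6 CPM where Ptcra was detected (310 and 528 cells) and at 6.43 and 4.60 where it was not. Spi1 was alike on that split, at 13.40 and 15.999 with Ptcra and 16.7 and 17.6 without it.

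Cells with Bcl11b and fewer than 5 Cd3 UMIs, 888 and 1550 in number, held Spi1 at 62.6 and 59.2 CPM and Spib at 0.99 and 0.96, from 9 and 11 Spib UMIs. Without the Cd3 cells the fall of Spi1 from Il2ra only to Il2ra and Bcl11b was 0.98 ± 0.06 (log2 -0.98, edgeR adjusted p = 2.94e-44). Without them Spib had too few counts to meet the edgeR filter and gave no value. The fall of Spi1 was therefore called with and without these cells, whereas the rise of Spib with Bcl11b could be tested only with them. The 9 and 11 UMIs left in cells with Bcl11b are too few to set against the 0.398 and 0.504 CPM with Il2ra only. Splits by other lineages were small: 4 and 1 cells carried granulocyte markers, 5 and 8 plasmacytoid markers and 54 and 52 B-cell markers. Spib was detected in 0 of the 5 and 8 plasmacytoid-marked cells and in 2 of the 54 and 1 of the 52 B-marked cells.

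Cells with both members were few. In thinned cells, 1 of 4628 and 4 of 6978 held a UMI of each, where the product of the 2 shares gives 6.75 and 10.8 cells. The counts are too low to read more from them.

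Genes reported elsewhere as PU.1 targets in myeloid and progenitor cells were followed as a list of 23, of which 21 met the bulk filter. From Bcl11b- to Bcl11b+ DN2a cells 9 fell, 1 rose and 11 did not pass, with 1.64% of all genes called lower and 1.15% higher. The list's median difference was -0.64 on the log2 scale, against -0.04 for all genes tested. With the replicate number as a block 12 fell and 1 rose, with 4.004% of all genes called lower and 3.01% higher. Without the kit term 0 fell in limma, where 4 of all genes were called. With the NEBNext libraries alone 1 fell (0.252% of all genes called lower), and without a filter 3 fell (0.261%). Leaving out 1 library gave 3 to 7 that fell: 3 without Bcl11b- replicate 1, 5 without Bcl11b- replicate 2 or Bcl11b+ replicate 1 or 2, 6 without Bcl11b+ replicate 3 and 7 without Bcl11b- replicate 3. In these fits 0.795% to 1.33% of all genes were called lower. The list was chosen with earlier results of these data known.

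Tyrobp, an adaptor that carries an activation motif for myeloid and NK receptors, stood at 168.98, 118.63 and 223.7 FPKM in Bcl11b- and at 43.5, 23.4 and 62.2 FPKM in Bcl11b+ DN2a cells. All Bcl11b+ libraries lay below all Bcl11b- ones, and Tyrobp fell by 2.02 (log2, limma adjusted p = 0.00069). Fcgr3, a low-affinity Fc receptor for IgG, fell by 1.78 (limma adjusted p = 0.00076). Bcl11a, a zinc-finger factor of progenitor and B cells, fell by 1.12 (limma adjusted p = 0.0013), from 21.1 to 22.9 FPKM to 7.85 to 11.5 FPKM. Il7r, the interleukin-7 receptor alpha chain, was the 1 that rose, by 1.21 (limma adjusted p = 0.0052). It stood at 17.8 to 21.5 FPKM in Bcl11b- and at 35.2 to 59.2 FPKM in Bcl11b+ DN2a cells, without overlap.

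Of 7 tested granulocyte and monocyte markers, 1 fell between these populations (Ctsg, by 1.84, limma adjusted p = 0.0075) and 6 did not pass, with a median of -0.02. The 10 markers summed to 30.1 to 75.4 FPKM in Bcl11b- and 17.3 to 51.3 FPKM in Bcl11b+ DN2a cells. Lyz2 made up most of these sums, Fcnb was at 0 in all 6 libraries, and Elane was at most 0.52 FPKM. Their part in the fall of the targets was not tested.

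The targets moved earlier too, and not in 1 direction. From Flt3+ to Flt3- ETPs 2 of 21 rose and 0 fell in limma (0.421% of genes called higher and 0.264% lower), with a list median of -0.04 against -0.15 for all genes. With the replicate number as a block 6 rose and 2 fell (3.58% of all genes called higher and 10.1% lower), and without Flt3- replicate 2 the count was 2 and 3. Without Flt3- replicate 1 or Flt3+ replicate 2 it was 1 and 0. The pair called were Fcgr3, higher by 2.63 (limma adjusted p = 0.00035), and Fcer1g, the common gamma chain of Fc receptors, higher by 1.35 (limma adjusted p = 0.0065). Granulocyte markers summed to 370 and 894 FPKM in Flt3- ETPs and to 90.5 and 130 FPKM in Flt3+ ETPs, and their part was not tested. From Flt3- ETPs to Bcl11b- DN2a cells 6 fell and 2 rose (2.35% and 1.62% of all genes), with a median of -0.39 against 0.12. There Il7r rose by 2.11 (limma adjusted p = 0.00032), whereas Ctss, the protease cathepsin S, fell by 2.88 (limma adjusted p = 0.00046), Csf3r, the G-CSF receptor, fell by 1.36 (limma adjusted p = 0.0011) and Csf1r, the M-CSF receptor, fell by 1.84 (limma adjusted p = 0.0036). In this step 7 of 7 tested granulocyte markers fell as well, and Spi1 itself was not called.

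Against total ETPs, Bcl11b- DN2a cells were lower in 10 targets and higher in 3 (5.87% and 9.78% of all genes). Without Bcl11b- DN2a replicate 1 or 3 the count that fell was 6 (1.60% and 2.61% of all genes called lower). It was lower still without either total ETP library, fits that leave 1 library of that population. Between Flt3+ ETPs and Bcl11b+ DN2a cells, the ends of the series, 12 targets fell and 2 rose (7.9% and 3.41% of all genes), with a median of -1.12 against -0.03. Ctss fell by 3.99 and Csf1r by 3.41 on the log2 scale (limma adjusted p = 1e-05 and 1.3e-05). Several of these comparisons share libraries, so their counts are not independent of each other.

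In the 10x cells 20 targets met the edgeR filter, and 15 fell and 1 rose from Il2ra only to Il2ra and Bcl11b (12.9% of all genes fell and 11.8% rose). The median was -0.71 against -0.01 for all genes. The 9 targets that fell in bulk between the DN2a populations were all among these 15, which is 100% of the bulk list and 60% of the 10x list. Most of the 20 tested targets fell in 10x, and both comparisons divide cells by Bcl11b, so a large overlap was likely. No such share was taken over all genes. Without the cells with at least 5 Cd3 UMIs 13 fell and 1 rose (9.38% and 9.07% of all genes), with a median of -0.58. Without the cells marked as granulocytes, plasmacytoid or B cells 15 fell and 1 rose (12.98% and 11.79% of all genes).

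In CPM in libraries 1 and 2, Tyrobp stood at 516 and 512 with Il2ra only and at 192.05 and 181.35 with Il2ra and Bcl11b (fell by 1.50, edgeR adjusted p = 9e-43). Mef2c, a MADS-box factor of progenitors, stood at 136.5 and 113.7 and then at 45.1 and 45.3 (fell by 1.49, edgeR adjusted p = 1.8e-35). Bcl11a stood at 147.03 and 151.2 and then at 63.8 and 74.2 (fell by 1.14, edgeR adjusted p = 1.1e-30). For these 3 genes both libraries of 1 class lay below both of the other. Il7r went the opposite way, from 40.4 and 45.7 to 105.2 and 101.2 (log2 difference 1.22, edgeR adjusted p = 2.6e-27).

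**Figure D4:**
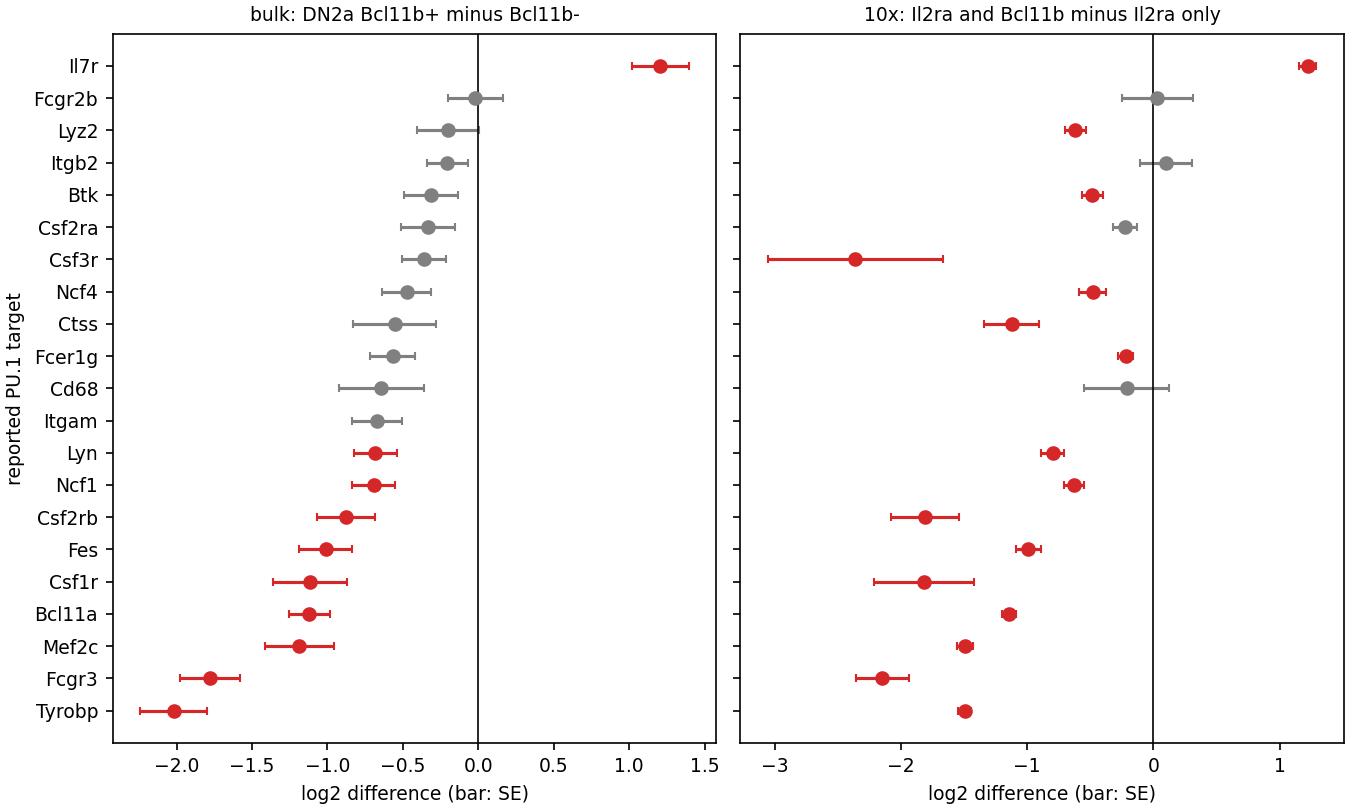
Log2 differences with SE for the reported PU.1 targets that met each filter, between Bcl11b+ and Bcl11b- DN2a bulk populations (left, limma) and between 10x cells with Il2ra and Bcl11b and cells with Il2ra only (right, edgeR), with red for an adjusted p under 0.05 and grey otherwise. Most targets lie below 0 in both panels (9 and 15 called lower), and Il7r lies above it in both.

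Between Flt3-only and Il2ra-only 10x cells, across which Spi1 was not called, 7 targets fell and 5 rose (11.7% and 8.56% of all genes). Mef2c fell by 1.35, Ctss by 2.98 and Lyz2, lysozyme, by 1.11, whereas Fcer1g was higher by 1.61 (edgeR adjusted p = 3.5e-36, 2.8e-31, 2.9e-20 and 8.1e-26). From Flt3 only to no marker 4 rose and 3 fell (2.55% and 2.94% of all genes), or 2 and 1 without the library block (0.237% and 0.0879%).

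Within the Il2ra-only class, cells with a Spi1 UMI (830 and 1024) were set beside cells without one (571 and 997), to see the targets within 1 marker class. The class can hold cells whose Bcl11b UMI was missed, so it may mix stages. The part of stage in these differences was not tested. The depths were alike but not equal, with medians of 8766.5 and 6932 UMIs against 8024 and 6082. Of 16 targets with at least 100 UMIs, 12 were higher in both libraries in cells with Spi1, or 75% against 27.4% of 9273 genes. The differences were small, with a median log2 ratio of 0.10 against 0.00 for all genes, and they carry no test because cells of a library are not replicates. Fcgr3 was higher by 0.50 and 0.56, Fes, a tyrosine kinase of myeloid cells, by 0.30 and 0.37, and Tyrobp by 0.18 and 0.20. Il7r was the 1 target lower in both, at -0.28 and -0.35. These examples were chosen after their values were seen. The same split by Spib had only 5 and 7 cells with a UMI and was not read.

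Of the 16 partners and antagonists of PU.1, 14 met the bulk filter, and 1 rose and 1 fell between the DN2a populations (1.15% and 1.64% of all genes), with a median of -0.04 for the list and -0.04 for all genes. Irf8, which forms DNA-binding complexes with PU.1, stood at 6.09 to 10.6 FPKM in Bcl11b- and at 0.94 to 1.72 FPKM in Bcl11b+ DN2a cells and fell by 1.91 (limma adjusted p = 0.0003). Gfi1, a repressor that opposes PU.1 in myeloid differentiation, was higher by 0.65 (limma adjusted p = 0.038), a call lost when any 1 of the 6 DN2a libraries was left out. Runx1, a factor that acts with PU.1 and at the Spi1 locus, differed by 0.22 (limma adjusted p = 0.87). Gata3, a T-lineage factor that opposes PU.1, differed by 0.37 (limma adjusted p = 0.54), and Tcf7, the Notch-induced T-lineage factor TCF1, by 0.02 (limma adjusted p = 1). With the replicate number as a block, 2 rose and 3 fell (3.01% and 4.004% of all genes).

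Tcf7 had risen before that step. Flt3- exceeded Flt3+ ETPs by 0.96 (limma adjusted p = 0.0036), and Bcl11b- DN2a cells exceeded Flt3- ETPs by 1.21 (limma adjusted p = 0.00019). In the first of these steps 2 partners rose and 0 fell in limma (0.421% and 0.264% of all genes). That count was 5 and 1 with the replicate number as a block (3.58% and 10.1% of all genes). It also changed when Flt3- replicate 2 or either Flt3+ library was left out, fits that leave 1 library of that population. In the second step 3 rose and 4 fell (1.62% and 2.35% of all genes), and over left-out libraries 1 to 4 rose and 2 to 4 fell, with both low ends without Flt3- replicate 1. The 4 included Gata2 (fell by 1.48, limma adjusted p = 0.0027), a factor of stem and mast cells, and Cebpa (fell by 2.00, limma adjusted p = 0.0032), a driver of granulocyte and monocyte fate. Cebpe, a factor of late granulocyte maturation, rose by 2.10 in the first (limma adjusted p = 0.0094) and fell by 1.65 in the second (limma adjusted p = 0.0065), with the granulocyte markers. Between total ETPs and Bcl11b- DN2a cells 4 rose and 3 fell (9.78% and 5.87% of all genes), and between Flt3+ ETPs and Bcl11b+ DN2a cells 4 rose and 4 fell (3.41% and 7.9% of all genes).

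In the 10x cells, 8 of 15 partners rose and 4 fell from Il2ra only to Il2ra and Bcl11b (11.8% and 12.9% of all genes), with a median of 0.29 against -0.01 for all genes. Without the library block 4 rose and 2 fell (3.91% and 4.39% of all genes). Irf8 stood at 21.6 and 21.7 CPM with Il2ra only and at 7.69 and 9.16 with Bcl11b as well (fell by 1.38, edgeR adjusted p = 5e-17). Gata3 went from 60.5 and 51.8 to 90.8 and 84.9 (log2 difference 0.61, edgeR adjusted p = 1.1e-13) and Runx1 from 97.3 and 108.2 to 137.4 and 147.2 (0.43, edgeR adjusted p = 1.6e-11). Cebpb, a factor of inflammatory myeloid genes, fell by 0.50 (edgeR adjusted p = 2.6e-10). Without the cells with at least 5 Cd3 UMIs 7 of 14 rose and 4 fell (9.07% and 9.38% of all genes). Markers of committed T cells rose in 6 of 6 tested genes in this comparison, and their part in the partners' rise was not tested beyond that.

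Before Bcl11b, from Flt3 only to Il2ra only, 6 partners rose and 4 fell (8.56% and 11.7% of all genes), led by Tcf7 (1.91, edgeR adjusted p = 7.6e-38) and Cebpb (1.61, edgeR adjusted p = 6.2e-24). From Flt3 only to no marker 7 rose and 0 fell in edgeR (2.55% and 2.94% of all genes). In DESeq2 3 rose (1.24% of all genes called higher), after thinning 4 (0.818%), with detection from 2 UMIs 4 (1.39%) and without the library block 2 (0.237%). Within the Il2ra-only class, 5 of 10 partners were higher and 4 lower in both libraries in cells with a Spi1 UMI. These are 50% and 40%, against 27.4% and 27.2% of all genes, with a median log2 ratio of 0.01. Higher were Irf8 (log2 ratios 0.39 and 0.49), Id2 (0.71 and 0.45), an inhibitor of E proteins, and, by less, Satb1, Cebpb and Runx1. Lower were Gata3 (-0.17 and -0.15), Tcf7 (-0.20 and -0.09), Gfi1 and Myb. These ratios carry no test. The class may mix stages, as said above, and the part of stage was not tested.

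The depth of the C1 cells is unknown, since their values are FPKM, and the 5 cells with fewer than 1000 genes over 1 FPKM were left out. Spi1 exceeded 1 FPKM in 86.04% of the cells, with a median of 55.2 FPKM. By the same markers at more than 1 FPKM, it was found in 61 of 65 Flt3-only cells (93.8%, exact binomial 95% interval 84.99% to 98.3%, median 68.4 FPKM), 25 of 33 with no marker (75.8%, 57.7% to 88.9%, median 60.8 FPKM) and 72 of 82 with Il2ra only (87.8%, 78.7% to 93.99%, median 45.9 FPKM). With Il2ra and Bcl11b it was found in 20 of 28 (71.4%, 51.3% to 86.8%, median 27.96 FPKM). Most of these 28 C1 cells thus still held Spi1 mRNA. At over 5 FPKM the count was 10 of 16 (62.5%, 35.4% to 84.8%). By the measure given below, the C1 cells had no counterpart of the 10x Cd3 cells, where Spi1 was low.

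**Figure D5:**
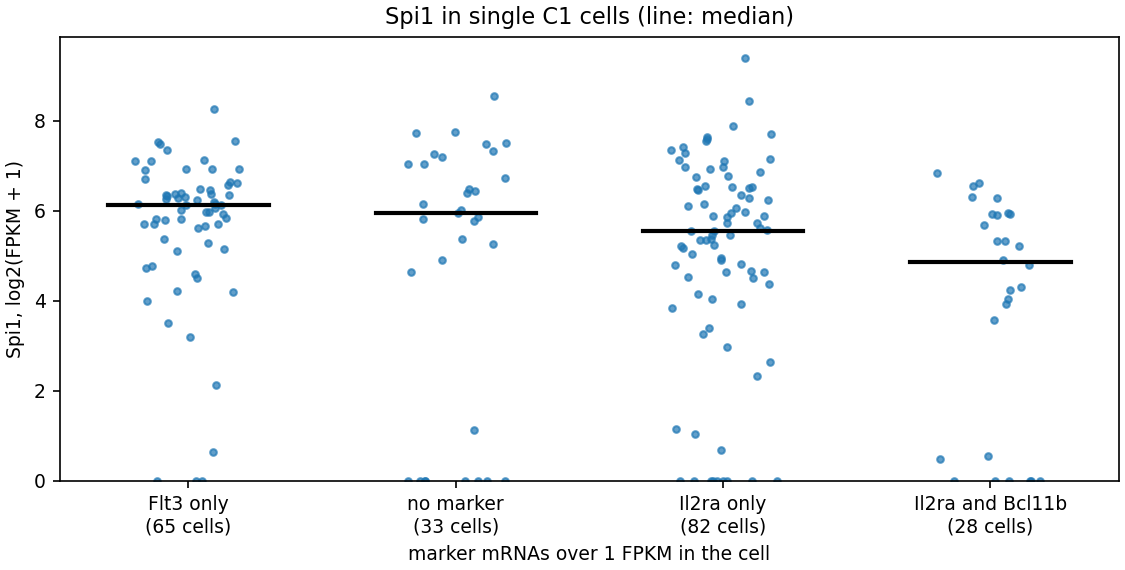
Spi1 as log2(FPKM + 1) in each C1 cell, by the marker mRNAs over 1 FPKM in the cell, with a black line at the median and points spread sideways at random. The median is lowest with Il2ra and Bcl11b (27.96 FPKM on the linear scale, against 45.9 with Il2ra only), and cells at or under 1 FPKM occur in all 4 classes.

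The difference between the last of these classes and Il2ra only was -16.4 percentage points (Newcombe 95% interval -35.6 to -0.404), which covers sampling of cells and not of animals or chips. With detection at over 0 FPKM it was -9.79 points (-27.9 to 4.37), and at over 5 FPKM -21.5 points (-46.1 to -0.701). The C1 libraries fall into 4 series of library numbers. In 1 of them the shares were 66.7% of 15 cells with Bcl11b and 90.9% of 33 without it, and in another 77.8% of 9 and 87.2% of 39. A smaller series held 3 of 4 and 3 of 3, and the last had no cell with both markers.

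Spib exceeded 1 FPKM in 2 C1 cells (0.901% of those kept, exact binomial 95% interval 0.109% to 3.22%). Both had no marker over 1 FPKM, with Spib at 4.45 and 1.25 FPKM, Cd3 and Ptcra at 0 FPKM and Spi1 at 0 and 69.8 FPKM. The second cell held Il2ra at 0.39 FPKM. No C1 cell had 2 or more of Cd3d, Cd3e and Cd3g over 1 FPKM, so the cells that held most Spib in the 10x data had no counterpart here by that measure.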

How the data were processed

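STAR 2.4.0, RSEM 1.2.25, HOMER, SAMtools, Cell Ranger 2.0 and edgeR 3.6.8 are named, without their roles, per the submitters' processing notes. The deposited bulk and C1 values are FPKM, and the deposited 10x values are UMI counts, so the bulk was tested on log2(FPKM + 1) and not on counts. Members and gene lists were chosen with earlier results of these data known.

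Bulk genes over 1 FPKM in at least 2 libraries (12112 of 24506) entered limma 3.58.1 in R 4.3.3, with population and kit as terms, and calls were made at a Benjamini-Hochberg adjusted p under 0.05. Reads were recovered from FPKM: values worth 0.5 to 40 reads were whole within 0.1 read for 100% of 1756 to 2780 such values per library (8.73% to 13.1% with a wrong step), and edgeR called 421 of 15293 genes between the DN2a populations on them. Same-numbered DN2a libraries share a series of library numbers, and their deviations from the group means correlated by 0.912, 0.930 and 0.980, so these were taken as paired. Part of that correlation comes with the kit.

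10x cells with at least 1000 genes and at most 10% mitochondrial UMIs were kept, and counts were summed by class and library for edgeR 4.0.16. No doublet caller was run. Shares were computed with and without thinning to 4000 UMIs, and marker classes were taken anew in thinned cells. Intervals cover counting error only. Named genes are Spi1, Spib, Spic, up to 4 called members per list and comparison by smallest adjusted p, partners named for their role, and the 5 genes most like each member. Alternatives were other normalizations, pseudocounts and filters, blocks, DESeq2 1.42.0 and leaving out each library. Fits were also run on simulated data with noise drawn independently for each library. Those data do not hold the correlation between libraries of a series, so they cannot show how it affects the calls.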

Additional observations from a re-analysis of the deposited data

How the results depend on the processing

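In the 10x comparisons of Spi1 and Spib 43 of 49 repeats kept direction and, where tested, the call. Repeats on 1 library alone were log2 ratios of CPM without a test and were judged by direction only. In the bulk tests all repeats kept both but 9 that turned, 4 that lost and 4 that gained the call. Spi1 between the DN2a populations lost its call without a filter (-1.50), without the kit term (-1.50) and with NEBNext libraries alone (-1.56), and Bcl11b+ DN2a against Flt3+ ETP with NEBNext alone (-1.70). Leaving out 1 library gave -1.73 to -1.23 for the former, called each time. With the replicate number as a block, which does not pair these libraries, Bcl11b- DN2a against total ETP became called for Spi1 (0.66) and Spib (0.58). Without Bcl11b- DN2a replicate 2 Spib was also called there (0.77, limma adjusted p = 0.0404; range over left-out libraries 0.48 to 0.77). The edgeR fit with the series as a block, which was not planned, called Spib in Bcl11b+ DN2a against Flt3+ ETP (1.94), with 9.39% of all genes called higher. For Spib in Bcl11b- DN2a against Flt3- ETP, never called, the sign turned with quantile normalization (0.069), no kit term (0.0903), the replicate-number block (0.11), the series block (0.0481), edgeR (0.26) and edgeR with the series block (0.49), and ranged from -0.19 to 0.11 over left-out libraries. For Flt3- against Flt3+ ETP it ranged from -0.183 to 0.0016 over left-out libraries, the latter without Flt3- replicate 1. Without Bcl11b+ DN2a replicate 1 or 2 Spib gave no value. The replicate-number and series blocks changed no other call of the members in limma. In 10x, Spi1 with no marker against Flt3 only was 0.20 in DESeq2, -0.0103 thinned, 0.22 with detection from 2 UMIs and 0.20 without the library block, none called; Il2ra only against Flt3 only was -0.33 thinned and called, and -0.138 without replicate 1 and 0.12 without replicate 2. The difference in share of cells with Spi1 between Il2ra with and without Bcl11b was -27.2 and -25.4 percentage points without thinning and -7.70 and -10.5 at 2000 UMIs, and that of Spib 3.28 and 2.37 without thinning. The causes were not tested. With 62 and 85 UMIs in all, Spib gave no value in the thinned 10x tests.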
